A study of Homo sapiens with 6 samples.

Results

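The genes examined were 10 long noncoding RNAs that carry small nucleolar RNAs (snoRNAs) in their introns, namely GAS5, SNHG1, SNHG5, SNHG6, SNHG7, SNHG8, SNHG12, SNHG15, ZFAS1 and EPB41L4A-AS1. Their rows were found by matching the Ensembl identifiers of the count table to gene symbols in GENCODE release 29, and all 10 were present among 48162 rows, of which 45342 could be named and 12277 belonged to long noncoding RNA genes. SiHa cells, an established human papillomavirus-positive cervical cancer line, received either si-CNN3#1, a siRNA directed against calponin 3 (CNN3), or the control si-NC. Each group had 3 samples, which the methods describe as independent assays, and all were collected at 48 h. Both groups thus carried a transfected siRNA, 1 cell line and 1 siRNA against CNN3 were sequenced, and no untransfected cells enter the comparison. CNN3 itself was at 28.1 ± 2.95 CPM (counts scaled to library size, with TMM factors) with si-CNN3 and 55.2 ± 2.97 with si-NC (SD, n = 3 in each group).

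snoRNA host genes are transcribed as longer RNAs from which the snoRNAs are cut out of the introns. C/D box snoRNAs guide 2′-O-methylation and H/ACA box snoRNAs guide pseudouridylation, chiefly of ribosomal RNA. Many host RNAs start with a terminal oligopyrimidine (5′TOP) tract, the element that puts the mRNAs of ribosomal proteins under control of growth signals, and their short reading frames make the spliced RNAs substrates of nonsense-mediated decay, so that several are known to accumulate when translation is inhibited. GAS5, the growth arrest-specific transcript, is the best known of them. The comparison asks whether these RNAs differed between SiHa cells with lowered CNN3 and their controls.

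In RefSeq (GRCh38.p14) the spans of the 10 genes held 34 snoRNA genes of 60 to 134 bases, 25 of the C/D class and 9 of the H/ACA class. GAS5 held 11 of them and SNHG1 held 8, whereas SNHG6, SNHG8, SNHG15 and EPB41L4A-AS1 held 1 each. Of these snoRNAs only SNORD87, in SNHG6, had a row in the count table, with 0 counts in all 6 samples, and the others were not analysed here. The values that follow therefore describe the host genes, and the snoRNAs that they release were not measured separately. In GENCODE 29 the merged exons of SNHG1 cover 3756 of its 3927 bases, and those of SNHG12 cover 4266 of 4595. Whether reads of unspliced or snoRNA sequence entered the host counts was not tested.

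The first bases of these RNAs are shown because the pyrimidine tract lies there. A run was taken as a C followed by at least 4 further C or T. RefSeq promoters, with 250 bases before the start and 50 from it, matched 8 members, not SNHG6 or SNHG15. The windows below hold 20 bases before the annotated start and 30 from it, 5′ to 3′ on the strand of the gene in GRCh38, and capitals mark a run that begins at the start base or up to 5 bases before it. They lie at chr1:28581844-28581893 (−) for SNHG12, chr4:118278742-118278791 (+) for SNHG8, chr11:62855856-62855905 (−) for SNHG1, chr5:112160506-112160555 (+) for EPB41L4A-AS1, chr1:173869016-173869065 (−) for GAS5, chr20:49278622-49278671 (+) for ZFAS1, chr6:85678704-85678753 (−) for SNHG5 and chr9:136728155-136728204 (−) for SNHG7.
SNHG12: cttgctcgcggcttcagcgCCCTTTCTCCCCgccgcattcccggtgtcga
SNHG8: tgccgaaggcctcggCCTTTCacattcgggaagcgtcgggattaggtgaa
SNHG1: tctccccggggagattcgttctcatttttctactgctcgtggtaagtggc
EPB41L4A-AS1: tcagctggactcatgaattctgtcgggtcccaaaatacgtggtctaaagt
GAS5: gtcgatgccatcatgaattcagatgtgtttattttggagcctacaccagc
ZFAS1: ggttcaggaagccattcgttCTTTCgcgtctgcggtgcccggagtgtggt
SNHG5: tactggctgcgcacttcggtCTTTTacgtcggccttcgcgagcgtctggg
SNHG7: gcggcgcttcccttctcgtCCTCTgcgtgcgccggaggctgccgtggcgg

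Read from the start base onward, a run was present in 3 of the 8 promoters (SNHG12, SNHG5 and ZFAS1) and in 4.07% of all 35116 promoters of the table. When a run could begin up to 5 bases before the start, 5 of the 8 held one, against 9.21% of all promoters. Annotated starts differ between sources, and GENCODE gives GAS5 other first exons, shown here because 6 of its 29 transcripts there begin with the run. The first 30 bases of one of them, GAS5-210, are at chr1:173867960-173867989 (−).
GAS5-210: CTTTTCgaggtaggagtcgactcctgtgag

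By GENCODE, 7 of the 10 genes (GAS5, SNHG1, SNHG5, SNHG6, SNHG8, SNHG12 and ZFAS1) had at least 1 transcript that begins with the run, compared with 15.8% of 15335 tested genes and 6.54% of 1895 tested long noncoding RNA genes. Genes with more annotated transcripts have more chances of one, and in SNHG1 it was 1 of 25 transcripts. Of further motifs searched on both strands of the promoters, CACGTG was found in 1 of the 8 members (SNHG7) and in 7.26% of all promoters. TGACGTCA (1.85% of all) and CTCGCGAG (1.02% of all) were found in none of the 8 windows.

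Expressed per length, as the FPKM values that the authors deposited, the members covered a range of levels within the same cells. In si-NC cells SNHG5 was at 187 ± 26.7 FPKM and ZFAS1 at 165 ± 2.89 FPKM (SD, n = 3, as for all means below), and these neighbours in the order overlapped between samples. Below them stood GAS5 at 107 ± 2.43, SNHG1 at 80.3 ± 5.51 and SNHG7 at 68.4 ± 1.20 FPKM. The 4 highest by these FPKM values, SNHG5, ZFAS1, GAS5 and SNHG1, were hosts of mainly C/D snoRNAs. SNHG8 was at 43.8 ± 2.02 FPKM, SNHG6 at 35.6 ± 2.03 and SNHG15 at 35.0 ± 0.735, and SNHG6 and SNHG15 overlapped. SNHG12 was at 23.7 ± 0.616 FPKM and EPB41L4A-AS1, the lowest, at 14.0 ± 0.318. All other neighbours in this order were apart in each group of 3 samples and over all 6, so the order of levels was the same with si-CNN3 apart from those pairs. SNHG5 lay above 95.9% of tested genes by FPKM and EPB41L4A-AS1 above 52.4%. The lengths behind these values, recovered from the deposited counts and FPKM, ran from 470 bases in SNHG8 to 1453 bases in SNHG7. They are shorter than the merged exons in GENCODE 29, which hold 923 bases in SNHG8, 3631 in GAS5, 3756 in SNHG1 and 4345 in SNHG7. The order of levels, and with it the place of the C/D hosts at the top, thus depends on the lengths used.

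**Figure D1:**
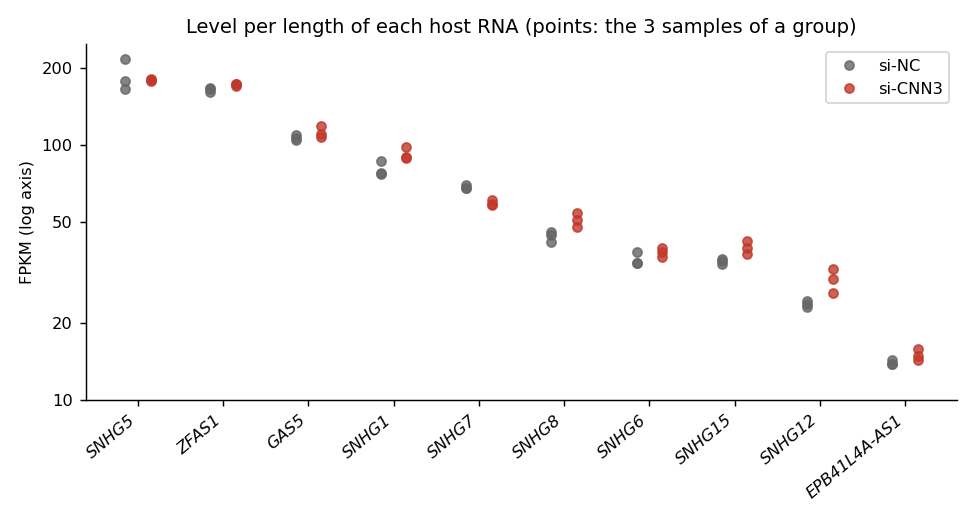
FPKM of each host RNA (y axis, log scale) in the 3 si-NC samples (grey) and the 3 si-CNN3 samples (red), ordered by the si-NC mean. Levels fall from SNHG5 (mean 187 FPKM in si-NC) to EPB41L4A-AS1 (14.0 FPKM), and SNHG6 and SNHG15 lie at nearly the same level (35.6 and 35.0 FPKM).

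The members together took nearly the same share of the transcriptome in both groups. Summed over the 10 genes, the level was 636 ± 12.8 CPM with si-CNN3 and 625 ± 16.2 CPM with si-NC, or 0.0639% and 0.0621% of all counts. The members did not keep the same share of this sum. SNHG7 made up 13.4% ± 0.422 of it with si-CNN3 and 16.0% ± 0.188 with si-NC, while SNHG1 made up 12.2% ± 0.385 and 10.9% ± 0.970, and SNHG12 4.73% ± 0.407 and 3.91% ± 0.0396. In bulk RNA, a changed level per cell and a changed share of expressing cells cannot be told apart.

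With si-CNN3, SNHG12, SNHG8, SNHG1 and SNHG15 were higher and SNHG7 was lower, by 11.7% to 23.0%, while GAS5, SNHG5, SNHG6, ZFAS1 and EPB41L4A-AS1 did not pass the test. Calls were made with the quasi-likelihood test of edgeR at an adjusted p of at most 0.05, by the Benjamini-Hochberg method over 15860 tested genes. All 10 members passed the filter on low counts. Of all tested genes, 13.3% were called, 6.17% as higher and 7.14% as lower, and with total counts in place of TMM factors the calls leaned the other way (60% of calls higher instead of 46.3%), with the same 4 and 1 calls among the members. Among 1895 tested long noncoding RNA genes, 4.06% were called, 2.9% as higher and 1.16% as lower. Most of those are far less abundant than the members. Among the 98 with a mean of at least 18.9 CPM, the level of the lowest member, 24.5% were called, 13.3% as higher and 11.2% as lower. Both the 1895 and the 98 include the 10 members, so these shares are in part those of the members. The 5 called members were those whose groups did not overlap, 4 with every si-CNN3 sample above every si-NC sample (13.9% of all tested genes) and SNHG7 with every one below (14.3%). An exact two-sided permutation test on CPM gave p = 0.1 for each of the 5, the smallest value that 3 samples against 3 allow. The median log2 fold change of the 10 was 0.08, with 8 values above 0 and 2 below, beside a median of 0.0023 over all tested genes and 0.02 over tested long noncoding RNA genes.

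**Figure D2:**
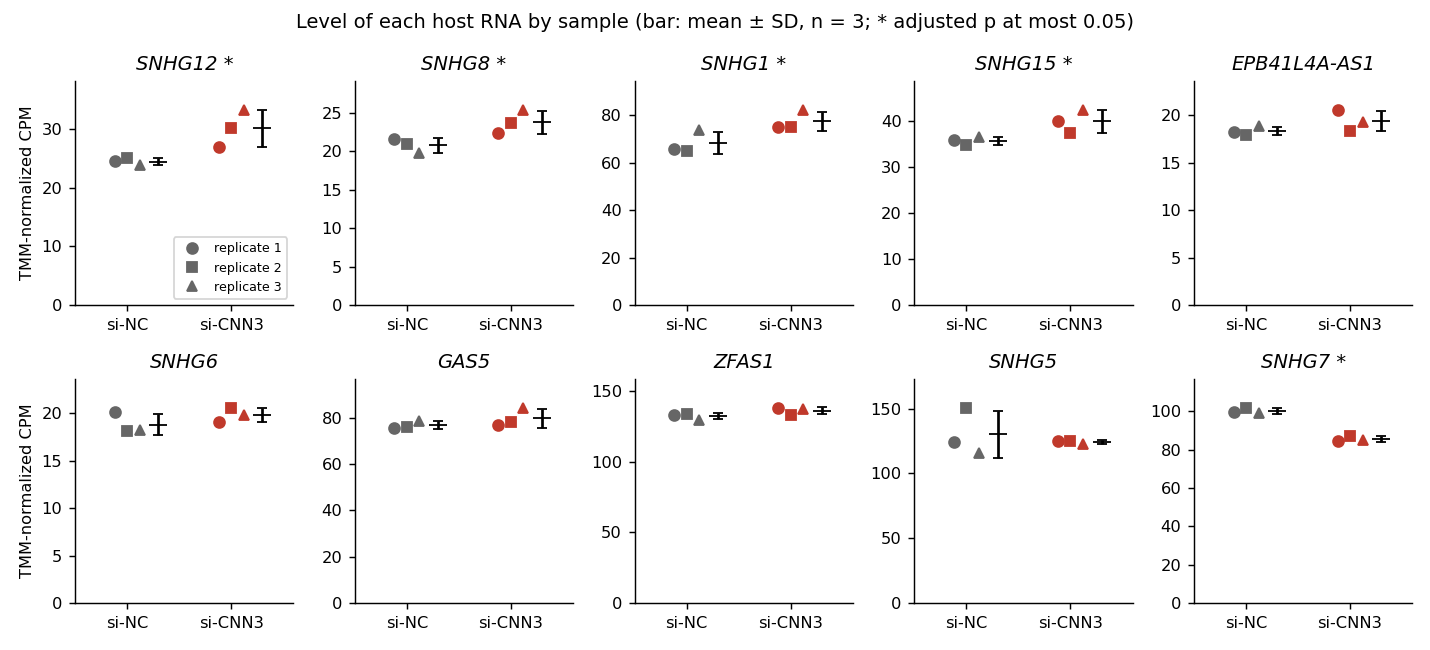
TMM-normalized CPM (y axes, each from 0) of each host RNA in the 3 si-NC samples (grey) and 3 si-CNN3 samples (red), with mean ± SD beside them, and an asterisk for an adjusted p of at most 0.05. The groups are apart in SNHG12, SNHG8, SNHG1, SNHG15 and SNHG7 and overlap in the other 5, and in SNHG5 the si-NC sample of replicate 2 stands above the rest at 150.5 CPM.

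The hosts of mainly H/ACA snoRNAs are taken first. SNHG12 (chr1:28578538-28583132, minus strand, 1 to 6 exons by transcript), which carries SNORA16A, SNORA44, SNORA61 and SNORD99, had the largest rise. Its level was 27.0, 30.1 and 33.2 CPM in si-CNN3 replicates 1, 2 and 3 and 24.5, 25.0 and 23.9 CPM in si-NC replicates 1, 2 and 3. Every si-CNN3 sample was above every si-NC sample, and the si-CNN3 samples were spread more widely than the controls. The log2 fold change was 0.30 (SE 0.06, adjusted p = 0.000327), from 30.1 ± 3.10 CPM against 24.5 ± 0.578.

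SNHG8 (chr4:118278709-118279823, plus strand), a compact gene of 1115 bases around SNORA24, was at 22.3, 23.6 and 25.3 CPM with si-CNN3 and 21.6, 20.9 and 19.7 CPM with si-NC. The groups were apart by less than 1 CPM at their nearest samples. The log2 fold change was 0.19 (SE 0.06, adjusted p = 0.0327). SNHG15 (chr7:44983023-44986961, minus strand), the host of SNORA9, was at 40.1, 37.4 and 42.4 CPM with si-CNN3 and 35.9, 34.9 and 36.5 CPM with si-NC. Its groups were also apart narrowly, with a log2 fold change of 0.16 (SE 0.05, adjusted p = 0.0301). Neither call held in every fit with 1 library left out. SNHG8 was at 0.20 without si-CNN3 replicate 2 (adjusted p = 0.0693, edgeR) or si-NC replicate 2 (0.0680), at 0.15 without si-CNN3 replicate 3 (0.212) and at 0.16 without si-NC replicate 3 (0.167). SNHG15 was at 0.16 without si-CNN3 replicate 1 (adjusted p = 0.0833, edgeR) or si-NC replicate 1 (0.0597), at 0.17 without si-NC replicate 3 (0.0503), at 0.14 without si-NC replicate 2 (0.125) and at 0.12 without si-CNN3 replicate 3 (0.218). The fold was thus about as large as with all samples in several of these fits, and smallest without si-CNN3 replicate 3.

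SNHG7 (chr9:136721366-136728184, minus strand), the host of SNORA17A and SNORA17B, was the only member called lower. It was at 84.3, 87.2 and 84.8 CPM in the si-CNN3 samples and 99.4, 101.8 and 99.2 CPM in the si-NC samples. The samples of each group lay close together, and the gap between the groups was several times the spread within them. The log2 fold change was −0.23 (SE 0.03, adjusted p = 1.32e-06), from 85.4 ± 1.55 CPM against 100.1 ± 1.42. The fall held with each of the 6 samples left out in turn, between −0.25 and −0.22.

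EPB41L4A-AS1 (chr5:112160526-112164276, plus strand), which carries SNORA13, was at 20.5, 18.4 and 19.3 CPM with si-CNN3 and 18.2, 18.0 and 18.8 CPM with si-NC. The groups overlapped, and the log2 fold change of 0.08 had a 95% interval from −0.05 to 0.21 (adjusted p = 0.499, edgeR). Of the 5 H/ACA hosts, 4 were thus called and 3 of these were higher. Beside this stand 13.3% of all tested genes and 24.5% of the 98 long noncoding RNA genes at member levels. The subgroup is small and was formed with the values known.

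Among the hosts of mainly C/D snoRNAs, only SNHG1 was called. SNHG1 (chr11:62851988-62855914, minus strand) carries SNORD22 and SNORD25 to SNORD31. It was at 75.2, 74.9 and 82.0 CPM with si-CNN3 and 65.8, 65.0 and 73.6 CPM with si-NC. The highest control sample was close below the lowest si-CNN3 sample, and the log2 fold change was 0.18 (SE 0.04, adjusted p = 0.00143), from 77.3 ± 4.03 CPM against 68.2 ± 4.71. The call held with each sample left out in turn, between 0.14 and 0.24.

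GAS5 (chr1:173863900-173868882, minus strand), with 10 C/D snoRNAs and 1 of the H/ACA class in its introns, did not pass the test. It was at 76.9, 78.0 and 84.2 CPM with si-CNN3 and 75.4, 76.2 and 78.6 CPM with si-NC. The groups overlapped. The log2 fold change was 0.05 (SE 0.04, adjusted p = 0.422), and its 95% interval from −0.02 to 0.13 covers a rise well below that of SNHG12. ZFAS1 (chr20:49278178-49295738, plus strand), the member with the highest mean CPM and the host of SNORD12, SNORD12B and SNORD12C, was the closest to an even level. It was at 138, 133 and 137 CPM with si-CNN3 and 133, 134 and 129.6 CPM with si-NC, with overlapping groups. Its log2 fold change of 0.04 had a 95% interval from −0.02 to 0.10 (adjusted p = 0.422, edgeR).

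SNHG6, which carries SNORD87, was at 19.1, 20.6 and 19.8 CPM with si-CNN3 and 20.1, 18.1 and 18.2 CPM with si-NC. The groups overlapped, and the log2 fold change was 0.08 with a 95% interval from −0.05 to 0.21 (adjusted p = 0.513, edgeR). SNHG5 (chr6:85660950-85678748, minus strand), the host of SNORD50A and SNORD50B, varied most among the controls. It was at 125, 125 and 122 CPM with si-CNN3 and 124, 150.5 and 115.6 CPM with si-NC. The si-CNN3 samples lay within the range of the controls, and si-NC replicate 2 stood above all others. The log2 fold change was −0.07 (SE 0.05, adjusted p = 0.324). Single control libraries set its sign and its call: it was 0.05 without si-NC replicate 2 (adjusted p = 0.490) and −0.15 without si-NC replicate 3 (adjusted p = 0.0204, edgeR).

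The higher members shared a sample. In SNHG12, SNHG8, SNHG1, SNHG15 and also GAS5 the highest of all 6 values was that of si-CNN3 replicate 3. Without that library SNHG12 stood at 0.22 and SNHG1 at 0.14, both still called (adjusted p = 0.0199 and 0.0354, edgeR), and SNHG8 at 0.15 and SNHG15 at 0.12, neither called. SNHG7 was at −0.23 without it. The class of the snoRNAs and the pyrimidine run did not line up with direction in a simple way: of the members with a run near the start in the sequences above, SNHG12 and SNHG8 were higher, SNHG7 was lower, and SNHG5 and ZFAS1 did not pass the test. SNHG1 was higher without such a run. These groupings were made with the values known, and no difference between them was tested.

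**Figure D3:**
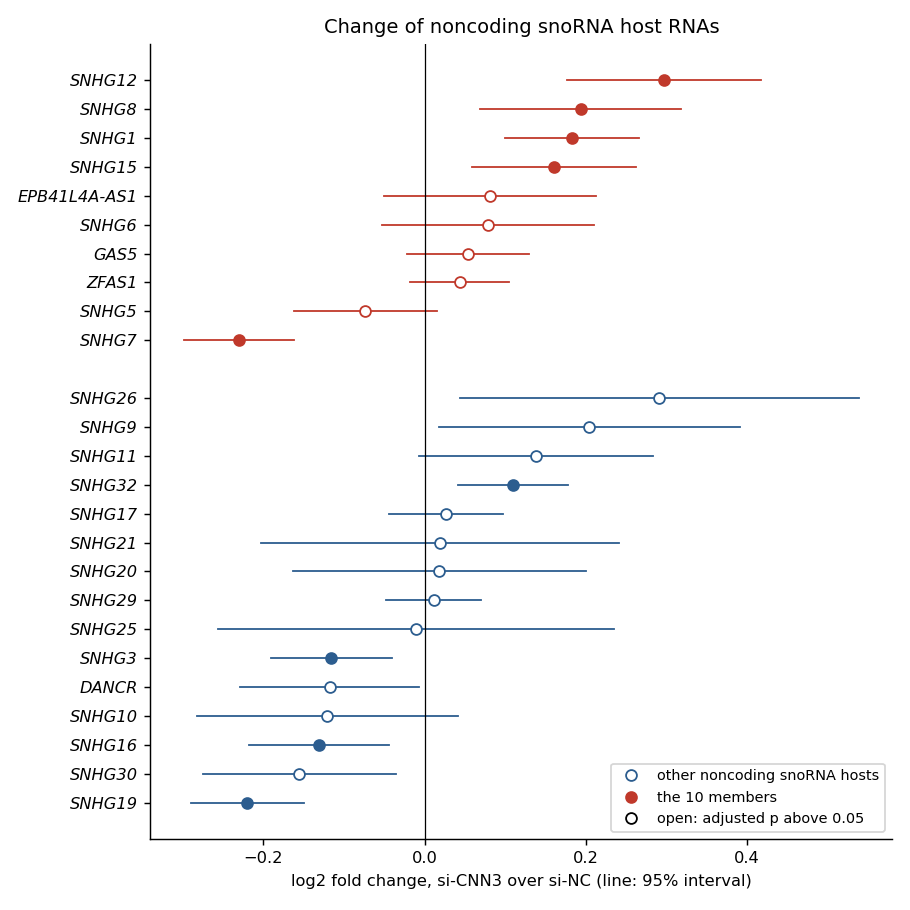
Log2 fold change of si-CNN3 over si-NC (x axis) with its 95% interval for the 10 members (red) and 15 other noncoding snoRNA hosts (blue), with filled points for an adjusted p of at most 0.05. Members run from SNHG7 at −0.23 to SNHG12 at 0.30, and the other hosts spread to both sides of 0.

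Several members lie opposite another gene, and the library kit in the labels is not one that marks strand, so reads of overlapping exons could not be told apart. Divergent partners that start within 2000 bases of a member were compared in the same fit. SLC3A2, the heavy chain of the amino acid transporters that exchange leucine and cystine, starts 188 bases upstream of SNHG1 on the other strand and shares no exon bases with it in GENCODE. It was at 773, 771 and 759 CPM with si-CNN3 and 654, 659 and 642 CPM with si-NC. The groups were far apart, and the log2 fold change was 0.24 (SE 0.02, adjusted p = 3.89e-11), in the same direction as that of SNHG1. ZNFX1, an RNA helicase-like zinc finger gene opposite ZFAS1, moved the other way from its partner's value. It was at 141, 143 and 143 CPM with si-CNN3 and 149.6, 158 and 156 CPM with si-NC, with a log2 fold change of −0.12 (SE 0.03, adjusted p = 0.00473). ZBTB37, opposite GAS5, was at 4.16 ± 0.0159 CPM against 3.73 ± 0.302, with a log2 fold change of 0.16 (SE 0.14, adjusted p = 0.547).

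EPB41L4A-AS1 shares the most exon bases, 1659 with EPB41L4A. That gene had 598 to 878 counts per sample, more than the 352 to 447 of EPB41L4A-AS1. Whether reads on the shared bases were added to either gene or left out was not tested, so the level of the antisense RNA is uncertain. ZFAS1 shares 249 bases with ZNFX1, whose counts (2614 to 3940) were of the same order as its own. SNHG12 shares 8 bases with TRNAU1AP (420 to 657 counts), a gene of selenocysteine incorporation. The partners of SNHG7 (FAM69B, 1094 shared bases), SNHG6 (MCMDC2, 365 bases) and GAS5 (GAS5-AS1, 42 bases) had at most 30 counts in any sample, far below the members. Low partner counts alone do not show that the shared bases left the counts of these members unaffected, which was not tested. SNHG8, SNHG15, SNHG5 and SNHG1 shared no exon bases with a gene on the other strand in GENCODE.

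Further noncoding snoRNA hosts did not move together. Of 20 listed, 19 were in the table and 15 could be tested. Of the 15, 26.7% were called, beside 50% of the members and 13.3% of all tested genes. SNHG32 (C6orf48 in GENCODE 29) was higher, at 99.9 ± 1.34 CPM against 92.6 ± 2.49 (log2 fold change 0.11, adjusted p = 0.0252). SNHG19 was lower, at 87.9 ± 2.71 CPM against 102 ± 3.32 (−0.22, adjusted p = 5.22e-06), as were SNHG16 (−0.13, adjusted p = 0.0395) and SNHG3 (−0.12, adjusted p = 0.0355). The samples of SNHG16 overlapped between the groups. DESeq2 called 0 of these hosts higher and 1 lower, limma 1 higher and 0 lower, and total counts left 1 lower. Without si-CNN3 replicate 1 or 3 or si-NC replicate 2 or 3, 0 were called higher, and without si-CNN3 replicate 2 or si-NC replicate 1, 1 was called lower. The median over the 15 was 0.01 on the log2 scale, nearer to that of all tested genes than the 0.08 of the members. SNHG19 thus fell by about as much as SNHG7, and none of the 15 past the threshold rose by as much as SNHG15. Larger rises than that of SNHG15 were seen in hosts that were not called. SNHG26 was at 0.29 (5.50 ± 0.210 CPM against 4.50 ± 0.215, adjusted p = 0.125, edgeR), with its groups apart, and SNHG9 at 0.20 (adjusted p = 0.163, edgeR). On the other side SNHG30 was at −0.16 (adjusted p = 0.0861, edgeR). Of the 15 values, 8 were above 0 and 7 below.

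snoRNAs also lie in introns of protein-coding genes, many of them for the translation machinery. Of 43 such hosts, 2 were higher and 7 lower (20.9% called, beside 13.3% of all tested genes), with a median of −0.01. The count of lower hosts was 15 with the replicate block, 11 without si-CNN3 replicate 1 or with no filter, 4 without si-NC replicate 1 and 1 with limma, and 1 was higher without si-CNN3 replicate 3 or si-NC replicate 2. TAF1D, a subunit of the RNA polymerase I factor SL1, was higher (0.25, adjusted p = 1.04e-06), as was RPL30 (0.17, adjusted p = 0.0123), a protein of the large ribosomal subunit. RPL30 was at only 41.0 ± 1.10 CPM against 36.3 ± 1.04, far below RPL12 at 486 ± 7.26 against 523 ± 5.43. Why its counts were so low was not tested, and its call rests on them. Nucleolin (NCL) was lower, at 607 ± 8.46 CPM against 758 ± 5.91 (−0.32, adjusted p = 1.90e-15), and RPL12 and RPSA fell by 0.11 and 0.10 on the log2 scale. Of 15 tested mRNAs with a known 5′TOP tract, ribosomal proteins left out, 0 were higher and 5 lower (33.3% called). Their median was −0.04. EEF2, EEF1B2, TPT1 and RACK1 were also among the 43 hosts, and EEF2 was called lower in both lists. Most of the 15 encode translation factors. At an unadjusted p under 0.05, edgeR had 1 of them higher, DESeq2 and limma called 0 higher, and total counts and the replicate block each called 1. NAP1L1, a nucleosome assembly chaperone, fell by 0.24, the initiation factor EIF4B by 0.18 and the elongation factor EEF1A1 by 0.14 on the log2 scale. Among the 10 host RNAs, 8 had values above 0, of which GAS5, SNHG6, ZFAS1 and EPB41L4A-AS1 were not called. No difference between these lists was tested.

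Genes that act on these RNAs were called at shares of 11.1% (nonsense-mediated decay factors), 0% (snoRNA particle proteins) and 15% (5′TOP regulators), beside 13.3% of all tested genes. Of 18 factors of nonsense-mediated decay, 0 were higher and 2 lower, the endonuclease SMG6 (−0.13, adjusted p = 0.0271) and the exon junction protein EIF4A3 (−0.10, adjusted p = 0.0399), and their median was 0.03. DESeq2 and limma called 0 of the 18, and edgeR had 2 higher and 2 lower at an unadjusted p under 0.05. Total counts gave 1 higher and 0 lower, upper quartile 1 lower, leaving out any si-CNN3 replicate 1 lower, and leaving out si-NC replicate 1 or 2 gave 0 lower. Of 18 proteins of the snoRNA particles and their assembly, edgeR called 0, with 3 higher and 2 lower at an unadjusted p under 0.05, and DESeq2 and limma also called 0. The replicate block called 2 of them lower, and leaving out si-CNN3 replicate 1 or 3 gave 1 higher or 1 lower. Among 20 regulators of 5′TOP mRNAs, the RNA-binding protein LARP4 was higher (0.22, adjusted p = 1.46e-06), and EIF4EBP2, a repressor of cap-dependent translation, and DDIT4, an inhibitor of mTORC1, were lower (−0.28 and −0.33, adjusted p = 4.19e-11 and 4.82e-14). limma called 0 of these regulators higher, and total counts and the replicate block each called 2. LARP1, the protein that binds 5′TOP tracts and is named here after its value was seen, did not pass the test, at 0.0038 on the log2 scale (SE 0.03, adjusted p = 0.953).

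The fold changes of long noncoding RNAs that carry no snoRNA spread more widely than those of the hosts, from −0.52 to 0.46. How much of this spread is counting error was not tested. Of 18 tested, 5 were higher and 3 lower, with a median of 0.12. The share called was 44.4%, beside 50% of the members and 13.3% of all tested genes. DESeq2 called 3 higher and 1 lower and limma 3 and 0. Without si-CNN3 replicate 2 or si-NC replicate 1, 3 were higher, and without si-NC replicate 2, 1 was lower. The largest rises were in CYTOR (0.46, adjusted p = 4.31e-07), MIR22HG (0.38, adjusted p = 0.00176) and HCP5 (0.30, adjusted p = 0.0200). The falls were in H19 (−0.52, adjusted p = 0.00731), NEAT1 (−0.14, adjusted p = 0.000862) and OIP5-AS1 (−0.10, adjusted p = 0.00746). The 8 members with values above 0 were thus within the range of other long noncoding RNAs in the same cells, and the largest rise among the members, that of SNHG12, was smaller than that of CYTOR and MIR22HG.

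**Figure D4:**
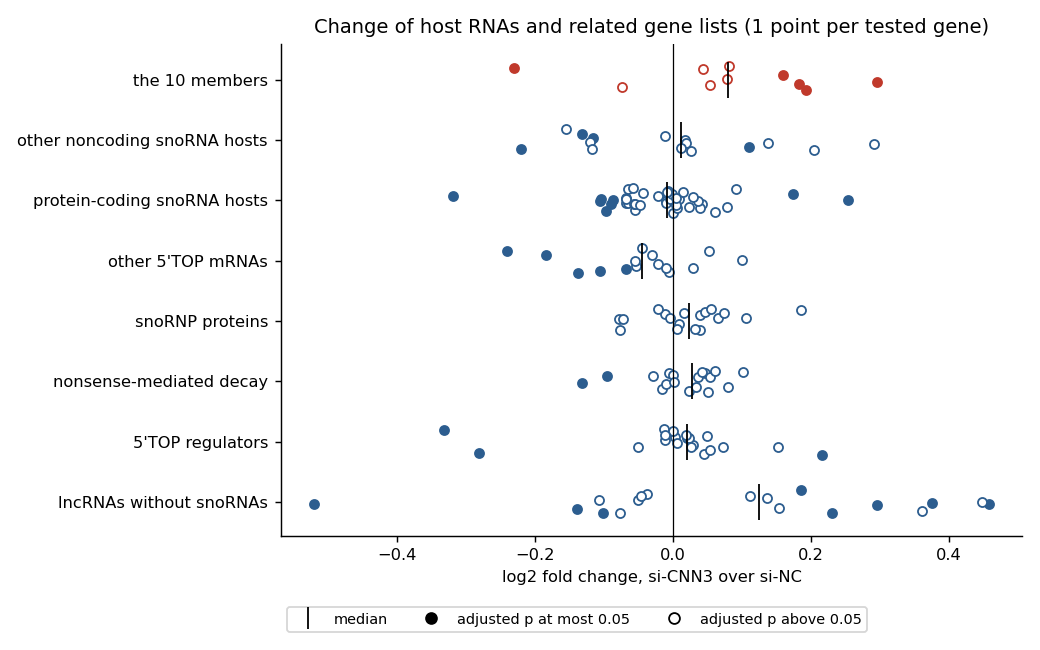
Log2 fold change of si-CNN3 over si-NC (x axis) of each tested gene of the 10 members (red) and of 7 related lists (blue), with a bar at each list's median and filled points for an adjusted p of at most 0.05. The medians run from −0.04 for other 5′TOP mRNAs to 0.12 for long noncoding RNAs without snoRNAs, and that of the members is 0.08.

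The fit was also repeated under 16 other settings, and no called member changed sign in any of them. SNHG7 was called in 15 of the 16, SNHG1 and SNHG12 in 13, SNHG8 in 7 and SNHG15 in 6. SNHG12 ranged from 0.22 to 0.37 over the settings and SNHG1 from 0.14 to 0.24. GAS5, SNHG6, ZFAS1 and EPB41L4A-AS1 were called in none, and their values stayed above 0 throughout, with the highest at 0.13 for SNHG6.

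**Figure D5:**
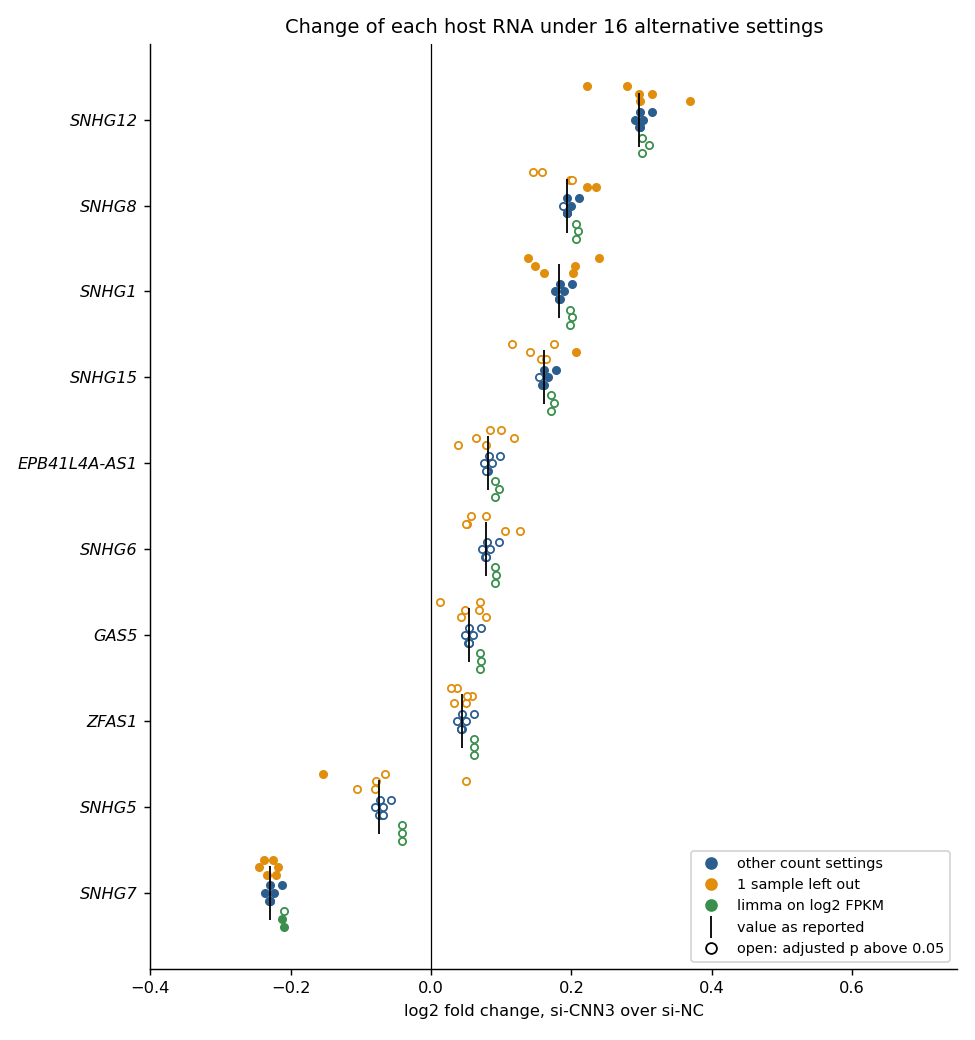
Log2 fold change of si-CNN3 over si-NC (x axis) of each member under 16 alternative settings, in blue for other count settings, in orange for fits with 1 sample left out and in green for limma on log2 FPKM, with open points for an adjusted p above 0.05 and a bar at the value as reported. SNHG12, SNHG8, SNHG1 and SNHG15 stay above 0 and SNHG7 stays below 0 throughout, while SNHG5 runs from −0.15 to 0.05.

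Counts on genes summed to between 18147028 and 19026341 per si-CNN3 sample and between 20287139 and 24976517 per si-NC sample, so all controls were deeper. All 6 epithelial markers were counted in every sample: KRT7 and KRT8 had 9445 to 14588 counts per sample, KRT18 2360 to 3448, CDH1 671 to 916, EPCAM 106 to 145 and KRT19 85 to 130. KRT8 and KRT18 were lower with si-CNN3 (−0.19 and −0.18, adjusted p = 4.87e-07 and 5.31e-05, edgeR), and the other 4 did not pass the test, with 3 of the 6 values above 0 and 3 below. Their part in the results above was not tested. Markers of other cells had fewer counts than each epithelial marker: PTPRC had 6 to 18 counts, DES and ALB 0 or 1, LUM 23 to 39 and DCN 59 to 81. DCN was thus not far below KRT19, so counts alone did not set every marker clearly apart.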

How the data were processed

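RNA from 3 si-CNN3 and 3 si-NC samples of SiHa cells was sequenced. Per the labels, the authors aligned reads with TopHat2 2.0.9 and Bowtie2 2.0.6 and used HTSeq and DESeq 1.10.1. They deposited raw read counts per Ensembl gene, and FPKM values that equal count divided by a gene length and the total count. The genome build, annotation and strand setting are not given in the sources used here. Names and positions came from GENCODE 29 (GRCh38), which left 2820 rows unnamed, and snoRNAs and promoters from RefSeq.

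Counts were tested with edgeR 4.0.16 in R 4.3.3 (filterByExpr, TMM, condition as the only term, adjusted p threshold 0.05). CPM are TMM-normalized. SE was taken from F and the log2 fold change, and 95% intervals are 1.96 SE to each side. Permutation tests were exact and two-sided. The test was tested on simulated data. The members, lists and named genes (in each list up to 3 with the largest rise and up to 3 with the largest fall among those called) were chosen with earlier results of these data known. Alternatives were RLE, upper quartile and total counts, DESeq2 1.42.0, no filter, at least 10 counts in every sample, a replicate block, limma 3.58.1 on FPKM after log2 with a pseudocount of 1 or 0.1, which understates changes of low genes, and each sample left out. An overlapping gene is not reported here.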

Additional observations from a re-analysis of the deposited data

How the results depend on the processing

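Against 4 members called higher and 1 lower, RLE, upper quartile, total counts and at least 10 counts in every sample gave the same numbers. DESeq2 called 2 higher, and the fit with no filter on low counts also 2. limma on log2 FPKM called 0 higher with a pseudocount of 1 or 0.1 and a mean of at least 1, and 0 with no filter, which also left 0 called lower. With 1 sample left out, 2 to 3 were called higher and 1 to 2 lower, the added one being SNHG5 without si-NC replicate 3. DESeq2 and no filter lost SNHG8 (adjusted p = 0.214 and 0.0634) and SNHG15 (0.177 and 0.0534). The cause was not tested. The common biological coefficient of variation was 0.0232, so that calls of 11.7% to 23.0% rest on a small spread between 3 samples. Pairs of libraries had a chi-square per degree of freedom of 1.56 to 1.98 within a group and 4.16 to 5.45 between groups. Whether the spread within a group is that of separate transfections was not tested, and the adjusted p measures no more than this spread.

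Replicate numbers are shared between the groups in the labels. Same-numbered samples deviated together with correlations of 0.0160, 0.0473 and 0.0265, each the best for its sample but all under 0.1, so they were not taken as pairs. With a replicate block, 4 members were called higher and 1 lower, and over all genes 1272 higher and 1455 lower instead of 978 and 1133. DESeq2 called 433 and 640 genes and limma on log2(FPKM + 1) with a mean of at least 1 called 328 and 254.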
